A study of Mus musculus with 6 samples.

Results

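The 10 genes described here belong to the Piwi-interacting RNA (piRNA) pathway, and their peaks were followed through nuclease maps of mouse sperm chromatin. They were taken by name from 21887 protein-coding genes and were Piwil1, Piwil2, Piwil4, Ddx4, Mael, Mov10l1, Asz1, Tdrd1, Tdrd9 and Pld6. All 10 were found in the gene table. For each gene, the peaks of every library within 1 kb of either annotated gene end, and those inside the gene body, were collected with their borders, width and fold.

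piRNAs are small RNAs of the germ line that guide PIWI proteins to transposon transcripts and other targets. Long precursor transcripts are unwound and cut at the mitochondrial surface, and the products are loaded onto PIWI proteins and trimmed. The pathway also uses germ granules, whose scaffold is built largely of Tudor-domain proteins. In the mouse testis the pathway silences transposons in fetal male germ cells, partly through DNA methylation, and it is needed again for meiosis and for the maturation of spermatids.

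The libraries came from sperm of the epididymis and vas deferens of mice that were wild type (WT, strain C57BL6 by the series design, 4 libraries) or that carried K49A, a lysine-to-alanine exchange in protamine 1 (2 libraries). Protamine 1 replaces histones during the last steps of sperm formation, and the comparison asked where nucleosome-sized DNA is found in each genotype. All sperm, mutant and wild type, went through the same DNase I treatment, decondensation and digestion, first with 5 and then with 15 units of micrococcal nuclease (MNase), which cuts DNA that is not protected by nucleosomes. DNA of mononucleosome size was then cut from a gel, sequenced, and summarised by the authors as 1 list of enriched regions (peaks) per library. The ages of the animals, how many animals stand behind 1 library and how the K49A allele was made are not given in the labels. The design calls the libraries of a genotype biological replicates, and spread between libraries is what every SD below measures.

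The lists differ in length, which bears on every count below. WT 1 to 4 held 11313, 20458, 22237 and 27903 peaks, and K49A 1 and 2 held 700 and 1017. A peak entered its list at a q of 0.1 or below, and the weakest listed peak had a −log10 p of 3.32 to 3.75 in WT but of 4.73 and 4.55 in K49A 1 and 2. The lists hold neither read sequences nor expression levels, so the substitution and the identity of the cells were not checked here, and the depth of the libraries is unknown.

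In wild-type sperm, 7 of the 10 genes had a peak at the annotated start in at least 1 library, and no gene had a peak at its finish. Asz1 and Ddx4 had one in all 4 WT libraries, Piwil1 and Mael in 3, Mov10l1 and Pld6 in 2, and Tdrd9 in 1. Piwil2, Piwil4 and Tdrd1 had no peak at an end in any library. In both K49A libraries all 10 genes were without a peak, at the ends and in the body. Of all protein-coding genes, 59.8% were called at an end in at least 1 WT library and 40.1% in no library at all, beside 7 and 3 of these 10.

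The stretches of DNA at stake are the promoters. RefSeq promoter sequences (GRCm38.p6, the assembly that mm10 names; 250 bases before to 50 bases from the start site on) were at hand for 9 of the 10 genes. Shown here are the promoters of the 4 genes called in 3 or 4 WT libraries and, for contrast, that of Piwil4, over which no library had a peak. Capitals mark the bases that lay under the peak in every library with a peak there (4 for Asz1 and Ddx4, 3 for Piwil1 and Mael, all of them WT).
Asz1, chr6:18109012-18109311, - strand: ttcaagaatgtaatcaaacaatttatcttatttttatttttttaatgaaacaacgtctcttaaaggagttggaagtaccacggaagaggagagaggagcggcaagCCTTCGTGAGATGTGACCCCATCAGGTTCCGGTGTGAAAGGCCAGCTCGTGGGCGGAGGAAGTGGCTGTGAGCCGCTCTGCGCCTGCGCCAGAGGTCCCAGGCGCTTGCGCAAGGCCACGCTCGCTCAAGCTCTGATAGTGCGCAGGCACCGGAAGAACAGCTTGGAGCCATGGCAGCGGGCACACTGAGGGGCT
Ddx4, chr13:112652261-112652560, - strand: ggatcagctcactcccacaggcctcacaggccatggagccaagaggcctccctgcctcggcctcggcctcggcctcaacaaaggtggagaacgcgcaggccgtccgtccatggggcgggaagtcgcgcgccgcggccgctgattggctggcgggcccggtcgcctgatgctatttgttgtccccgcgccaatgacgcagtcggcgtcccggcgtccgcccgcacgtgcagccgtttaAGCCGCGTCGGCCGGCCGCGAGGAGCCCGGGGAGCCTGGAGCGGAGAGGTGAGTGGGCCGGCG
Piwil1, chr5:128735996-128736295, + strand: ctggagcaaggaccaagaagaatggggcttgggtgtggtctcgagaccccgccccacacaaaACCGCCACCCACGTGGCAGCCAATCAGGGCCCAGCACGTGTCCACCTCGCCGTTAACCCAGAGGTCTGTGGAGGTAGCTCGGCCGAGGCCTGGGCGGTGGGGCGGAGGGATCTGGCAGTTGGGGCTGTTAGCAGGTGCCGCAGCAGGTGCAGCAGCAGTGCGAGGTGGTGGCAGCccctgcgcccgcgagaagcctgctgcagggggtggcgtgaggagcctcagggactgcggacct
Mael, chr1:166238695-166238994, - strand: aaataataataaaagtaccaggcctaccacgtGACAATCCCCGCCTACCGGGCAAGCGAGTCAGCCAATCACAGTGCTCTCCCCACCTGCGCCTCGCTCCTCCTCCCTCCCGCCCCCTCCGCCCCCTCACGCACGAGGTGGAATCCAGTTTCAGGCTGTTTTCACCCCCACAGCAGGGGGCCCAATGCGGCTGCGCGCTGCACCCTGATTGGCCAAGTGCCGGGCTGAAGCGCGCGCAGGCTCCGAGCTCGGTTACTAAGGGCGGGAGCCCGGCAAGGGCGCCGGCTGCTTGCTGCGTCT
Piwil4, chr9:14740623-14740922, - strand: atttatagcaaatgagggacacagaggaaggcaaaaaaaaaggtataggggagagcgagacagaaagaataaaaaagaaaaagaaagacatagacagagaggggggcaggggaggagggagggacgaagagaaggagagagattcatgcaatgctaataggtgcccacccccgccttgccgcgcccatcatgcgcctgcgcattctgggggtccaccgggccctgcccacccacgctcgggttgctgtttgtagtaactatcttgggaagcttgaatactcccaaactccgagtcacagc
The shared stretch took up 195 of the 300 bases at Asz1, 63 at Ddx4, 175 at Piwil1 and 268 at Mael. At Asz1 and Mael it ran through the start site to the end of the window. At Piwil1 it ended 14 bp before the start site. At Ddx4 it began just before the start site and continued into the gene beyond the window.

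**Figure D1:**
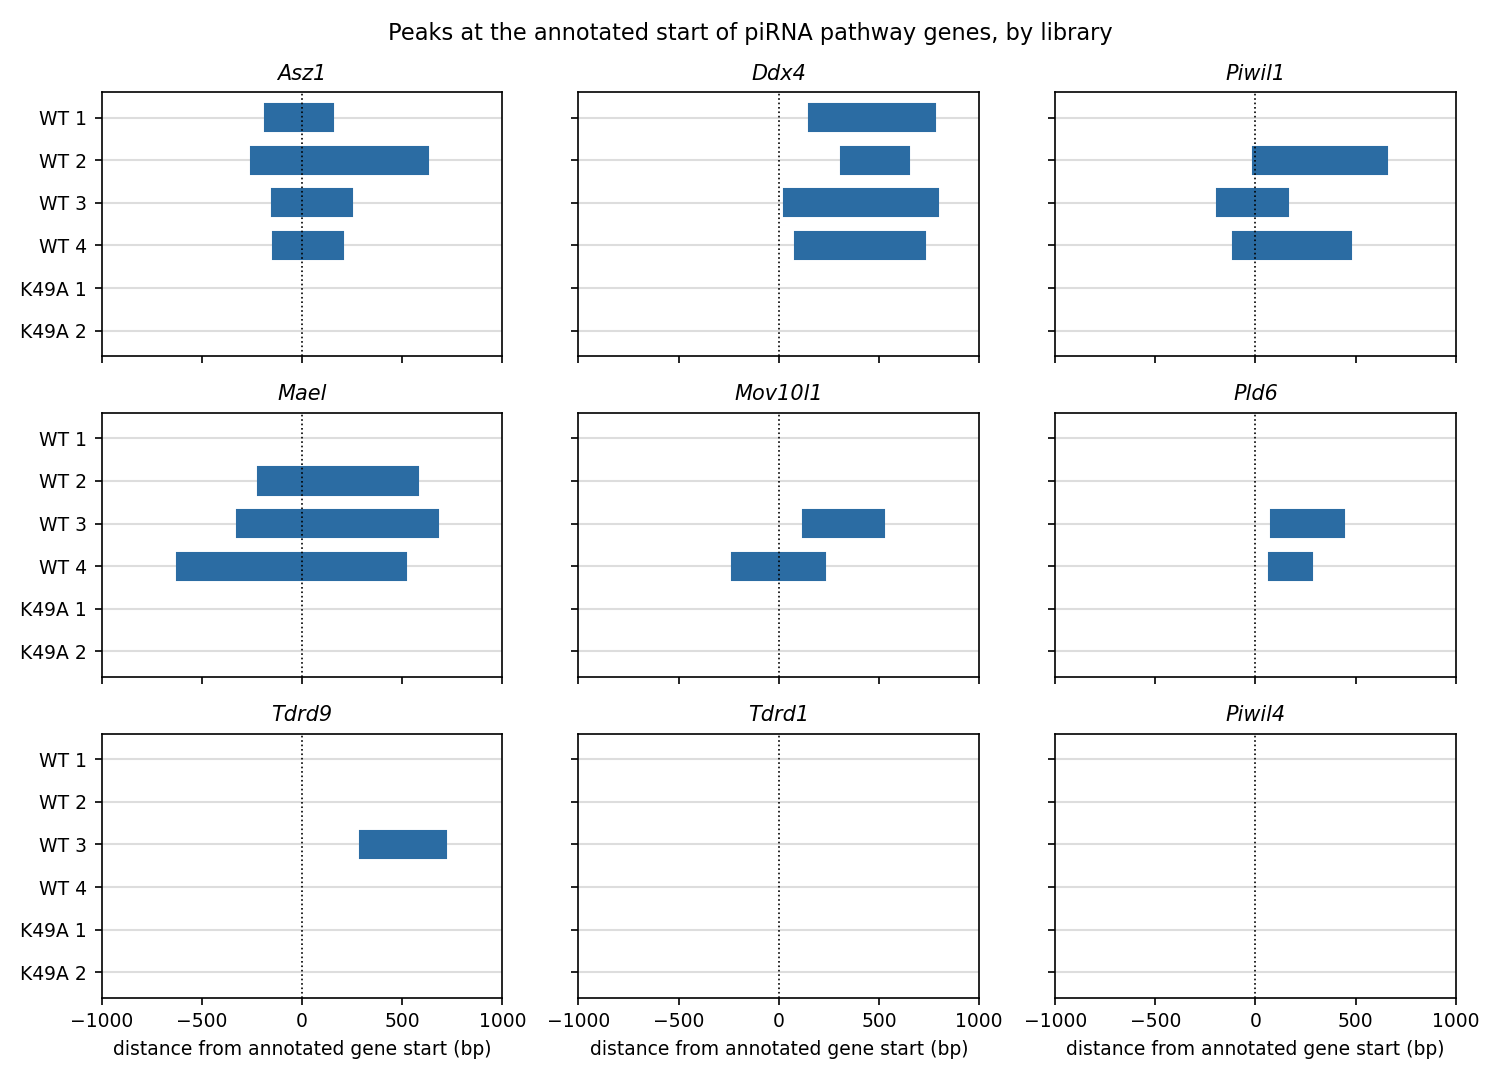
Borders of the peaks at the annotated start of 9 genes, in bp along the direction of transcription (x axis; dotted line, annotated start), with 1 row per library (WT in blue; K49A rows are empty). The Asz1 and Ddx4 panels hold 4 bars each, Piwil1 and Mael 3, Mov10l1 and Pld6 2, Tdrd9 1, and Tdrd1 and Piwil4 none; Piwil2 is not drawn because its strand was not in the promoter table.

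Among the PIWI proteins themselves, only Piwil1 had a peak at an end. Piwil1 encodes MIWI, the PIWI protein of late spermatocytes and round spermatids that carries pachytene piRNAs (chromosome 5, 128736071 to 128755474, plus strand). Its start peak spanned 128736058 to 128736725 in WT 2, 128735879 to 128736232 in WT 3 and 128735958 to 128736548 in WT 4. The 3 peaks shared 175 bp, from 13 bp before to 161 bp after the annotated start. This stretch ended 14 bp before the start site of the RefSeq promoter table, which lies 175 bp inside the gene. The authors' fold over background was 2.54, 3.40 and 3.49 in WT 2, 3 and 4. WT 1, the shortest WT list, had no Piwil1 peak, nor did either K49A library.

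Piwil2 encodes MILI, which works from fetal germ cells to spermatids (chromosome 14, 70372477 to 70436898). It had 1 peak, in the gene body in WT 4 (70429144 to 70429612, fold 2.60), 7286 bp from the nearer gene end. Its strand and promoter were not in the promoter table, so start and finish were not told apart there. Piwil4 encodes MIWI2, the nuclear PIWI protein of fetal germ cells that directs DNA methylation to transposons (chromosome 9, 14701776 to 14740672, minus strand). It was the one gene of the 10 with no peak at an end or in the body in any of the 6 libraries.

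Of the factors that make piRNAs from their precursors, Asz1 was called in the most libraries. Asz1 encodes GASZ, a scaffold on the mitochondrial surface of germ cells (chromosome 6, 18050964 to 18109061, minus strand). Its start peak was 339, 885, 399 and 350 bp wide in WT 1 to 4, with folds of 3.70, 3.93, 3.07 and 2.84 (3.38 ± 0.51, SD, n = 4). The 4 peaks shared 299 bp, from 18108908 to 18109206, which spans the start. WT 2 had the widest and strongest peak, at the 96.6th percentile of its list by −log10 q, whereas the peaks of WT 3 and WT 4 lay below the middle of theirs, at percentiles 44.0 and 35.5.

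Mov10l1 encodes the RNA helicase that binds piRNA precursors and passes them to processing (chromosome 15, 88982891 to 89055152, plus strand). It was called at the start in WT 3 (88983012 to 88983413, fold 3.69) and in WT 4 (88982656 to 88983122, fold 2.57). These 2 peaks overlapped by 111 bp. Both also lay within 1 kb of an end of Mlc1, the neighbouring gene (88955884 to 88982693, minus strand), so they cannot be assigned to Mov10l1 alone. No other peak at an end of the 10 genes touched the end window of another coding gene.

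Pld6 encodes the mitochondrial nuclease that cuts piRNA precursors (chromosome 11, 59783893 to 59787657, minus strand). At 3765 bp it is the shortest of the 10 genes. It was called in WT 3 and WT 4 with peaks of 365 and 216 bp and nearly equal folds of 2.79 and 2.72. Both peaks lay inside the gene, with their upstream borders 79 and 66 bp from the annotated start.

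Among the germ granule proteins, Ddx4 and Mael were called most often. Ddx4 encodes the mouse VASA helicase, a germ cell marker (chromosome 13, 112598333 to 112652633, minus strand). Its start peak was 631, 342, 767 and 646 bp wide in WT 1 to 4, with folds of 2.64, 2.46, 2.51 and 3.51 (2.78 ± 0.49, SD, n = 4). All 4 peaks began downstream of the outermost annotated start, by 26 to 310 bp, and all 4 covered the start site of the RefSeq promoter table, which lies 323 bp inside it. In WT 1 the −log10 q was 1.04, close to the limit of the list, and in WT 4 it was 4.49.

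Mael encodes Maelstrom, a granule protein needed for transposon silencing (chromosome 1, 166201385 to 166238744, minus strand). Its start peak was 795, 1004 and 1142 bp wide in WT 2, 3 and 4, the last 2 being the widest start peaks of the 10 genes, with folds of 2.56, 2.62 and 3.06. They shared 735 bp across the start. A second, 299 bp peak lay in the gene body in WT 3 only.

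Of the 2 Tudor-domain genes, 1 had a start peak, in a single library. Tdrd9, which encodes a Tudor protein with a helicase domain that acts with MIWI2 (chromosome 12, 111971488 to 112068854, plus strand), had a start peak in WT 3 alone (111971775 to 111972205), with a fold of 2.42, the lowest of the start peaks. Tdrd1, which encodes a Tudor protein that binds MILI (chromosome 19, 56826171 to 56870012, plus strand), had no start peak. It had 2 body peaks, of 221 and 546 bp, both in WT 3.

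The 10 genes had 19 start peaks in all, and all of them reached into the gene. They were repeat calls of 7 genes and so are not independent. Positions were not counted for the start peaks of all genes, so those given here cannot be called a trait of piRNA genes. The centre of the peak lay between 54.5 bp before and 502 bp after the annotated start, with a median of 182 bp after it, and it was downstream in 15 of 19 peaks. Of the 19 peaks, 11 spanned the annotated start, 8 lay wholly inside the gene and 0 lay wholly upstream. These positions depend on the outermost annotated start being used. The 4 Ddx4 peaks were among those wholly inside, yet covered a start site of the RefSeq promoter table. A start site of the RefSeq promoter table was covered by 15 of the 19, and the other 4 lay between 14 and 216 bp from one. The Piwil1 peak of WT 3 lay wholly upstream of that site, ending 14 bp before it. Widths ran from 216 to 1142 bp (median 467 bp).

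For coding genes in general, too, end peaks were mostly at the start. Among genes of known strand that were called at an end, 95.4 to 96% had one at the start and 6.82 to 11.1% at the finish in the WT libraries. For all genes of known strand the start was called in 27.6% in WT 1 and 47.2% in WT 4.

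To compare genotypes gene by gene, the base pairs of the end windows that lay under peaks were counted. Ddx4 had 631, 342, 767 and 646 bp covered in WT 1 to 4 and 0 in both K49A libraries. Asz1 had 339, 885, 399 and 350 bp, again against 0 and 0. For these 2 genes the WT and K49A values did not overlap, and WT was higher by 596.5 and 493 bp on average, with WT SDs of 180 and 262 bp (n = 4; exact permutation test over 15 splits, two-sided p = 0.133, the smallest this design allows, and 0.605 after Benjamini-Hochberg adjustment over all 21887 genes).

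Such a separation was common: covered length was higher in every WT than in both K49A libraries for 22% of all genes, and 21.8% of all genes were called at an end in all 4 WT and in no K49A library. The share among the 10 genes, 2 of 10, is near this background and says nothing particular about piRNA genes. At Piwil1 (0, 668, 354 and 591 bp in WT 1 to 4) and Mael (0, 795, 1004 and 1142 bp) the value of 0 in WT 1 met the zeros of K49A (exact permutation test, two-sided p = 0.4 for each). Mov10l1 (0, 0, 402 and 467 bp) and Pld6 (0, 0, 365 and 216 bp) overlapped the K49A values in 2 WT libraries each (exact permutation test, two-sided p = 0.8 for each), and Tdrd9 (0, 0, 431 and 0 bp) in 3 (exact permutation test, p = 1). Without WT 1, the shortest WT list, 4 of the 10 genes (Asz1, Ddx4, Piwil1 and Mael) and 32.4% of all genes were in the class of peaks in every remaining WT and no K49A library.

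**Figure D2:**
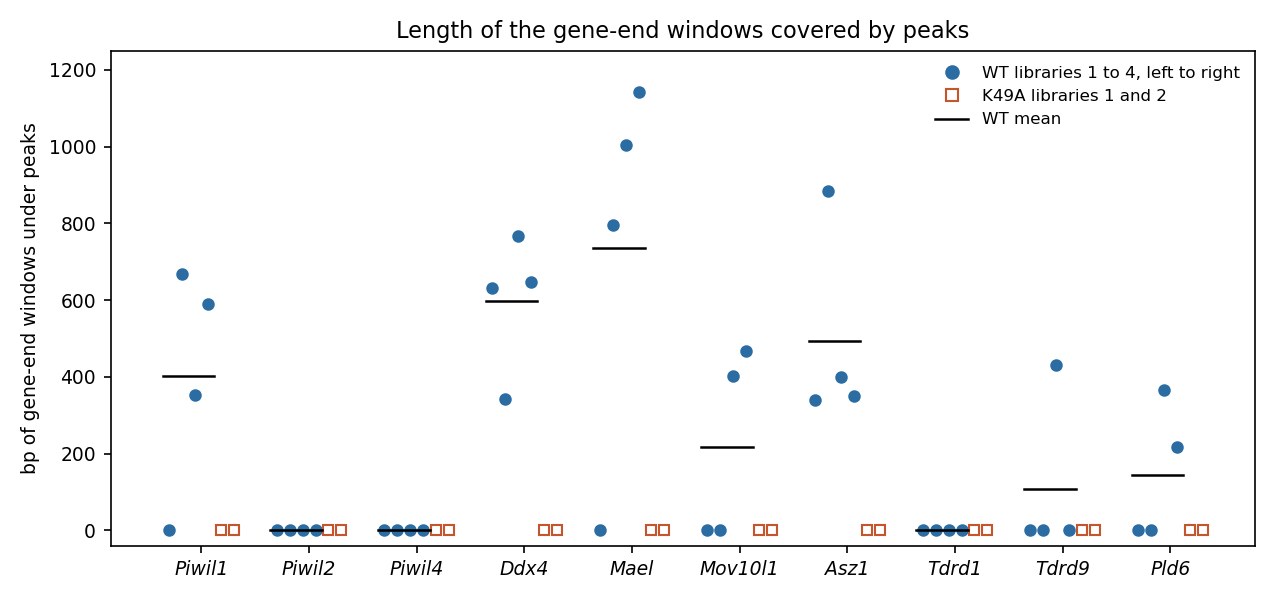
Base pairs of the 1 kb windows at both gene ends that lay under peaks (y axis), for each of the 10 genes (x axis) and each library (filled circles, WT 1 to 4 from left to right; open squares, K49A 1 and 2; bar, WT mean). At Ddx4 and Asz1 all 4 WT values are above 0, from 342 to 767 bp and from 339 to 885 bp, while every K49A value of the 10 genes is 0.

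The absence of K49A peaks at the 10 genes has to be read beside the short K49A lists. End peaks were present at 0.429% of all coding genes in K49A 1 and at 0.334% in K49A 2, and a peak midpoint inside the gene for 1.08 and 1.45%. A count of 0 of 10 is near these shares and is no result about piRNA genes. The peak nearest to each gene in K49A 1 lay between 60.96 kb (Asz1) and 9067 kb (Piwil1) away, and in K49A 2 between 667 kb (Tdrd1) and 8660 kb (Piwil2). Of the 19 WT start peaks, 9 had a −log10 p of at least 4.73, the weakest value listed in K49A 1, and the other 10 were weaker than any peak of that list. Whether K49A sperm had weaker enrichment at these starts was not tested, since the lists do not hold it.

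In the WT lists the share of the 10 genes called at an end was lowest in the shortest list, WT 1, as was that of all genes. It was 2 of 10 in WT 1 (28.8% of all genes), 4 of 10 in WT 2 (43%), 7 of 10 in WT 3 (46.3%) and 6 of 10 in WT 4 (49.9%). The share lay below that of all genes in WT 1 and WT 2 and above it in WT 3 and WT 4. The calls were nested: the genes called in WT 1 were also called in WT 2, those of WT 2 in WT 4, and those of WT 4 in WT 3. Both genes called in 3 libraries were missed in WT 1, as were 69.6% of all genes called in 3 WT libraries, and both genes called in 2 libraries were called in WT 3 and WT 4, as were 35.1% of all genes called in 2.

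**Figure D3:**
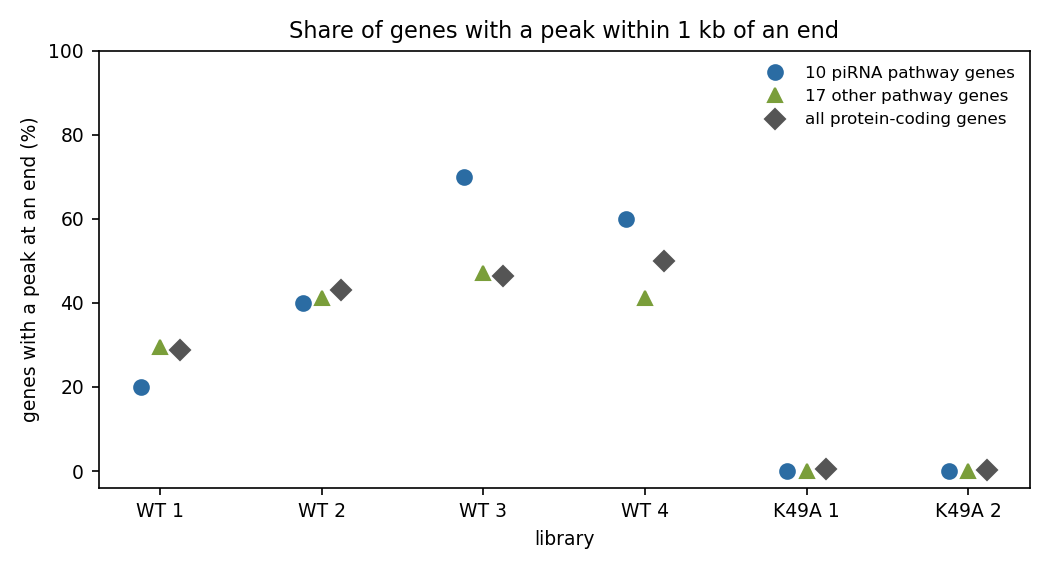
Percent of genes with a peak within 1 kb of an end (y axis) in each library (x axis), for the 10 genes (circles), 17 other genes of the pathway (triangles) and all 21887 protein-coding genes (diamonds). The 10 genes rise from 20% in WT 1 to 70% in WT 3 and are at 0 in both K49A libraries, where all genes are at 0.429 and 0.334%.

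The start peaks ranked from near the bottom to near the top of their lists, from percentile 0.256 to 96.6 by −log10 q (median 38.7). Their folds ran from 2.42 to 3.93 (median 2.79), and their −log10 q from 1.04 to 4.82 (median 1.92). The median −log10 q of all gene-end peaks was higher in each list, at 2.25, 2.15, 2.36 and 2.66 in WT 1 to 4. Of the 19 peaks, 7 lay above the middle of their own list. The highest percentiles belonged to Asz1 in WT 2 (96.6), Mov10l1 in WT 3 (94.7), Piwil1 in WT 3 and WT 4 (93.0 and 90.5) and Ddx4 in WT 4 (90.1). The strongest call of a gene was not in the same library throughout, and Piwil1 in WT 2 was at percentile 1.99. At a −log10 q of at least 2, 8 of the 19 peaks remained, where 58.6, 57.3, 66.5 and 71.1% of all gene-end peaks in WT 1 to 4 did. No gene of the 10 was left with a peak in all 4 WT libraries, beside 8.34% of all genes in that class without K49A peaks.

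**Figure D4:**
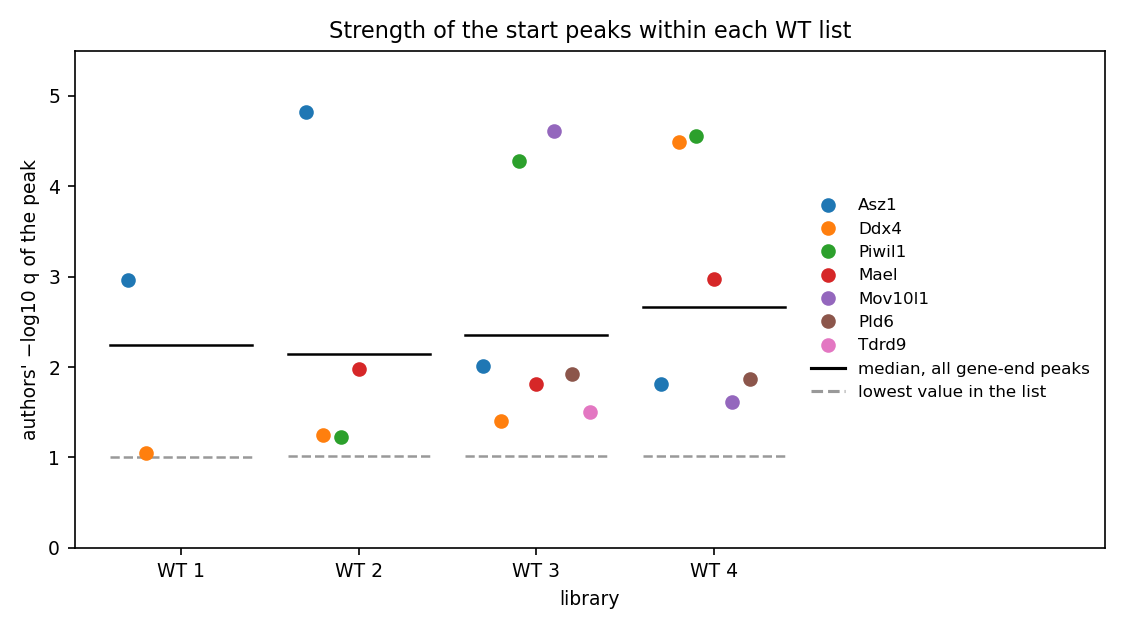
The authors' −log10 q of each start peak (y axis) in the 4 WT libraries (x axis), coloured by gene, with the median of all gene-end peaks of that list (solid line) and its lowest value (dashed line). Asz1 in WT 2 (4.82) and Mov10l1 in WT 3 (4.61) are the highest points, and Ddx4 in WT 1 (1.04) lies at the limit of its list.

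Inside the genes and away from their ends, 6 peaks were found in 5 of the 10 genes, each in a single WT library. Besides those of Piwil2, Mael and Tdrd1 these were a 247 bp peak in Mov10l1 and a 200 bp peak in Tdrd9, both in WT 4. Their folds ran from 2.60 to 2.99, and no position was called in a second library. Peaks away from the ends were not counted over all genes. The 5 of 10 therefore has no background here and is no result about piRNA genes. Counting every peak with its midpoint between the gene ends, start peaks included, 1, 4, 7 and 7 of the 10 genes had one in WT 1 to 4, beside 31.2, 44.4, 47.6 and 53.5% of all genes. Per 100 kb of gene the 10 genes held 0.204, 0.817, 1.84 and 1.43 such peaks in WT 1 to 4, and all coding genes 0.769, 1.26, 1.40 and 1.75. The 10 genes were thus below the overall rate in WT 1, WT 2 and WT 4 and above it in WT 3.

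What the promoters share was described from the sequence alone. The GC content of the 9 promoters ran from 52.7% (Piwil4) to 72% (Ddx4), with a median of 62.3%, against 56.3% for the promoters of 17492 coding genes. The ratio of observed to expected CpG dinucleotides ran from 0.43 (Tdrd9) to 0.98 (Ddx4), with a median of 0.67 against 0.58. Over all genes this ratio was higher where more WT libraries had a start peak, with medians of 0.22, 0.64, 0.73, 0.79 and 0.82 for 0 to 4 libraries. Ddx4 (0.98) and Asz1 (0.78) were called in all 4 libraries and Tdrd9 (0.43) in 1. Tdrd1 (0.73) and Piwil4 (0.54) had no start peak although their ratios were above the upper quartile (0.43) of uncalled promoters, and Piwil1 (0.54) was called in 3 libraries with a ratio below the lower quartile (0.61) of its class.

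**Figure D5:**
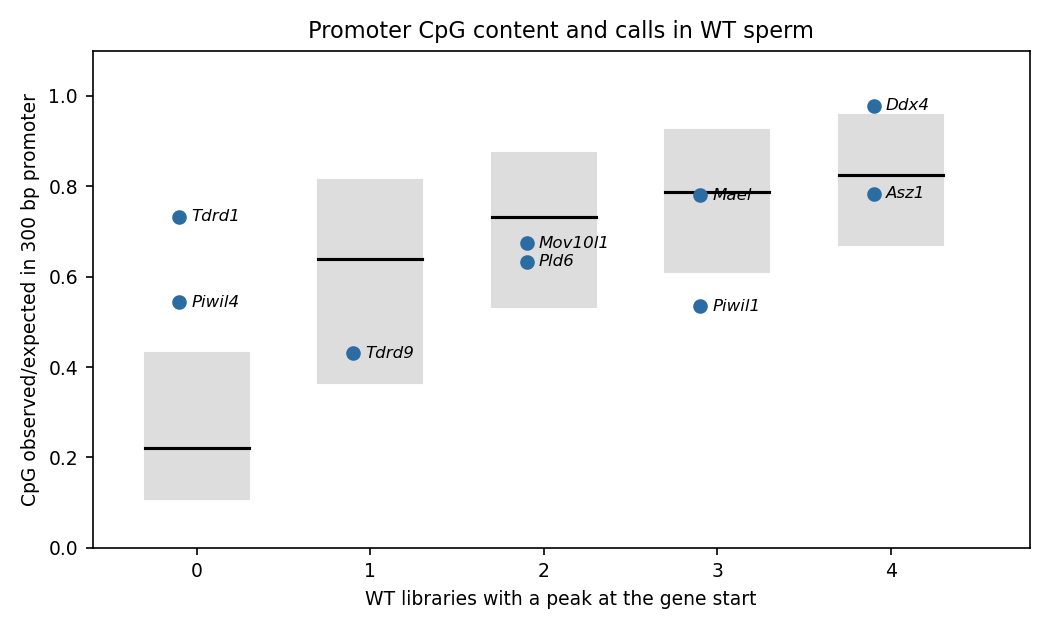
Ratio of observed to expected CpG in the 300 bp promoter (y axis) by the number of WT libraries with a peak at the gene start (x axis), for 9 of the 10 genes (points) over the median (line) and middle 50% (grey box) of all coding genes with that number. Tdrd1 (0.73) and Piwil4 (0.54) lie above the box of uncalled genes, and Piwil1 (0.54) lies below the box of genes called in 3 libraries.

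The promoters were searched on both strands for 5 motifs, and CACGTG was the one whose share differed most from that of all promoters. CACGTG, the E-box bound by basic helix-loop-helix proteins, occurred in 7 of the 9 promoters and in 7.91% of all 17492. The matches are shown with up to 12 flanking bases, the motif in capitals, to let its surroundings be compared.
Piwil1, chr5:128736055-128736084, + strand: aaaaccgccaccCACGTGgcagccaatcag
Piwil1, chr5:128736080-128736109, + strand: atcagggcccagCACGTGtccacctcgccg
Ddx4, chr13:112652322-112652351, - strand: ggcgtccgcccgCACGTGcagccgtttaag
Mael, chr1:166238950-166238979, - strand: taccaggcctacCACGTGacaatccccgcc
Mov10l1, chr15:88982744-88982765, + strand: ccttCACGTGctaaccgccaac
Tdrd1, chr19:56826186-56826215, + strand: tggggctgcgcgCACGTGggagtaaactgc
Tdrd9, chr12:111971382-111971411, + strand: ggtctccataaaCACGTGcctgtccaggtc
Tdrd9, chr12:111971452-111971481, + strand: gcacgaggctccCACGTGcatgcagggcct
Pld6, chr11:59787673-59787702, - strand: ggggcgggctggCACGTGttgggcgcgcaa
Asz1, with a peak in all 4 WT libraries, and Piwil4, with none, were the 2 without it. The E-boxes of Piwil1, Ddx4 and Mael lay at least partly under the start peak in 3 libraries each and that of Mov10l1 in 1, whereas those of Tdrd1, Tdrd9 and Pld6 lay under none. Over all genes, 27% of promoters with CACGTG and 20.7% of those without had a start peak in all 4 WT libraries, and the median CpG ratio was 0.76 with it and 0.55 without. The other motifs were AACNG, the core bound by MYB proteins (9 of 9 promoters, 79.2% of all), CCAAT (6 of 9, 39.2%), GGGCGG, the GC box (6 of 9, 46.3%), and TGACGTCA, the cyclic AMP response element (0 of 9, 2.33%). No test was made of these shares.

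Other genes of the pathway were counted in the same way. Of 17 such genes, 5, 7, 8 and 7 had a peak at an end in WT 1 to 4 (29.4, 41.2, 47.1 and 41.2%). Of all coding genes, 28.8, 43, 46.3 and 49.9% had one. In K49A 1 and 2, 0 of the 17 had one, beside 0.429 and 0.334% of all genes. Tdrkh and Exd1, whose products act in piRNA trimming and biogenesis, were called in all 4 WT libraries, which is 2 of 17 beside 21.8% of all genes in this class. Tdrkh had 729, 965, 1047 and 378 bp of its end windows under peaks, and Exd1 had 229, 1103, 1300 and 628 bp. Mybl1, which encodes A-MYB, the activator of pachytene piRNA precursors, was called in WT 2, 3 and 4 with 460, 1051 and 932 bp. CACGTG was in 2 of the 11 promoters at hand for these 17 genes.

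Tdrd6, Tdrd7, Morc1, Dnmt3l and Btbd18 had no peak at an end in any library, which is 5 of 17 beside 40.1% of all genes. Tdrd7, a Tudor-domain gene of the germ granules (chromosome 4, 45965027 to 46034766, plus strand), nevertheless had a peak in all 4 WT libraries about the same place in its body, with upstream borders at 45972359, 45972272, 45972362 and 45972232 and folds of 3.54, 3.81, 3.13 and 3.59. The RefSeq promoter table places further start sites of this gene there, at 45972297 and 45972831, and the peaks of WT 2, 3 and 4 covered at least 1 of them. For Tdrd7 the outermost annotated end was therefore not where the repeated peak lay. Tdrd6 also had overlapping body peaks in WT 2, 3 and 4, lying 1521, 1592 and 1462 bp inside the nearer gene end, with folds of 3.05, 2.66 and 2.80.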

How the data were processed

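Peaks were called with MACS2 on single libraries and placed on mm10, and BWA, Picard, SAMtools and FastQC were also used, per the submitters' processing notes. Versions, settings, any input control and deduplication are not given in the sources used. The deposited lists hold, for each peak, a fold enrichment as a ratio, a −log10 p, a −log10 q and a whole-number score derived from it by the authors. These values are the authors'. A fold is relative to the background of 1 library, so folds and ranks describe peaks, their means over WT libraries are descriptions, and they were not tested between genotypes. No counts were given.

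Coordinates were made 1-based. Peaks were placed against the RefSeq gene table for GRCm38.p6 (chromosomes 1 to 19, X and Y), which has no exons. Strand came from the RefSeq promoter table and was known for 17492 coding genes and 9 of the 10 members. A peak was at an end if it overlapped a window of 1 kb either side by at least 1 bp, and in the body by its midpoint. Covered length was tested for all genes with an exact permutation test over libraries, two-sided, and Benjamini-Hochberg adjustment. Since 4 against 2 libraries cannot give a p under 0.133, no gene could pass 0.05. Python 3.11.15, numpy 2.4.6, pandas 2.3.3 and scipy 1.17.1 were used, and the placement and test were tested on simulated data. The text names all 10 members, pathway genes called in all 4 WT, in any K49A or in no library, and neighbours that share a peak. Mybl1, and the body peaks of Tdrd6 and Tdrd7, were added after their values were seen. Dnmt3c, listed as a pseudogene in the gene table, was left out of the pathway list. The members and lists were chosen with earlier results of these data known. Alternatives were windows, overlap, peak thresholds, lists of equal length, a replicate block and leaving out each library.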

Additional observations from a re-analysis of the deposited data

Results flagged for a closer look

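With 4 WT libraries per value, 4 of 15 sets of values had a library far from the other 3 (Dixon's test at the 95% level). The test flags about 1 in 20 sets by chance only where values are normally distributed. Many covered lengths are 0, so that rate does not hold for those sets. The sets are also not independent, since width and covered length at Asz1 are the same peaks. At Asz1 the start peak of WT 2 was 885 bp wide, and so was the covered length there, against 339 to 399 bp in the other WT libraries. At Tdrd9 the covered length was 431 bp in WT 3 and 0 in the other 3, which any gene called in 1 library gives and which adds nothing to that call. At Ddx4 the −log10 q of the start peak was 4.49 in WT 4 and 1.04 to 1.40 in the others. The libraries that stood apart were WT 2, WT 3 and WT 4, a different one at each gene.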

How the results depend on the processing

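Windows of 500 bp or 2 kb and an overlap of at least 200 bp left the same number of the 10 genes, 2, with an end peak in every WT and in neither K49A library. Of all 21887 genes, 4080, 5367 and 4570 were in that class under these settings, beside 4764 in the main setting. Stricter lists did not keep the 2 genes in it. These had a −log10 q of at least 2, a −log10 p of at least 5, or only the 700 strongest peaks. With them 0 of the 10 were in that class, beside 1826, 1517 and 15 of all genes. The mean number per WT library with an end peak (K49A at 0) fell from 4.75 to 2, 1.75 and 0.25. End peaks were then at 16.9 to 36.7%, 18 to 31.6% and 1.52 to 2.13% of all genes in the WT libraries. The mean number with a peak midpoint inside the gene, start peaks included, went from 4.75 to 1.25, 1 and 0.25. The 6 peaks away from the ends had a −log10 q of at most 1.83, so none of them was left at a −log10 q of at least 2. Midpoints over all genes were not counted for these settings. The genes of all 21887 whose covered length separated the genotypes went from 4821 to 1841, 1550 and 20. These settings keep fewer peaks by construction. Leaving out 1 library at a time gave 2 to 4 members in the class, the 4 being without WT 1. Of all genes, 7084 were in it without WT 1, and 4787 to 5275 without any other single library. The titles share the replicate numbers 1 and 2 across genotypes, and nothing says that they pair the libraries; by file name K49A 2 goes with WT 4 instead. With pairs by title as a replicate block the class held 2 members and 5301 of all genes. The mean difference was 3 members for end peaks and 2.5 for peak midpoints inside the gene, since only WT 1 and WT 2 enter. In WT 1 and WT 2 all those midpoints belonged to start peaks. With pairs by file name, an alternative chosen after seeing the data, the class held 2 members and 5773 of all genes, and both differences were 4. Of 98 covered-length values of the 7 members with start peaks under the alternatives, 15 went to 0; none could turn negative, because K49A had no peak at any member. The unknown depth and the q limit of each list set which weak peaks are seen at all.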
